A study of Homo sapiens with 6 samples.

Results

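The box H/ACA small nucleolar RNA genes (symbols starting SNORA) and the small Cajal body RNA genes (symbols starting SCARNA) were followed in RNA bound by NAT10, an RNA acetyltransferase that writes N4-acetylcytidine (ac4C). Members were chosen by measured values: a gene row of either name was kept when its FPKM (reads scaled by gene length and library depth) was above 0 in at least 1 of 4 libraries. The rule kept 132 rows, 111 SNORA and 21 SCARNA, of 476 rows with such a name, and 344 were at 0 in all 4 libraries. Just inside the rule, SNORA69 stood at 0.256 FPKM in a single RIP library and at 0 in the others, and of the rows just outside it 3 were above 0 in an Input of a second table. The threshold therefore lay at about a single read, and 39 members were above 0 in exactly 1 library.

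The libraries came from SW480 and DLD-1, established human colorectal cancer lines that received no treatment and were grown in DMEM with fetal bovine serum. Their genotype was recorded as wild type, but the paper states that both lines carry mutant p53. For each line there was an Input library of total RNA, a RIP library of RNA precipitated with a NAT10 antibody, and an acRIP library of RNA precipitated with an ac4C antibody, 6 libraries in all. Each group held 1 library, so no difference within a line has a replicate check. RIP against Input with the lines as replicates would set 2 libraries against 2. No test was made, since these values chose the members, and counting intervals cover counting error only. RIP and Input values stood in one table, a second table gave Inputs of the same labels measured alongside acRIP, and whether both tables hold the same Input library was not given.

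Box H/ACA RNAs fold into paired hairpins that place a target uridine for conversion to pseudouridine by dyskerin (DKC1). Those named SNORA work mainly in the nucleolus on ribosomal RNA, while those named SCARNA carry a signal for the Cajal body, where they guide modification of spliceosomal RNAs, and some SCARNA hold a box C/D part that directs ribose methylation instead. Most lie in introns of other genes and are released when the intron is processed, so a member and the gene that holds it share a primary transcript but not a mature RNA.

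The depth recovered from the steps of the FPKM values was 29628966 reads for RIP and 14617145 for Input under the label SW480, and 25189477 and 13498777 under DLD-1. Among 7 epithelial and intestinal markers, KRT20, a keratin of intestinal epithelium, stood at 0 FPKM in RIP and 29.2 in Input for the label SW480, against 23.9 and 0.0426 for DLD-1. EPCAM, an epithelial adhesion molecule, gave 95.05, 324, 306 and 127 FPKM in the same order. The RIP libraries thus resembled the Input of the other label for these genes. The RIP difference between the labels was opposite to the Input difference for 6 of the 7 markers, and for VIL1, an actin-binding protein of the brush border, it had the same sign, at 1.24 and 1.13 FPKM against 0.687 and 0.261. Libraries are named below by their labels, and each RIP library was also set against the Input of the other label. The markers of leukocytes, fibroblasts and endothelium (PTPRC, COL1A1 and PECAM1) were at most 0.381 FPKM in the 4 libraries.

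Members took a smaller part of the RIP libraries than of the Inputs. Their FPKM summed to 960.3 in RIP against 9363 in Input for the label SW480, and to 2053 against 6642 for DLD-1. As a share of the whole library's FPKM this was 0.238% against 1.75%, and 0.436% against 1.29%. A single gene, SNORA3B, made up 40.7% and 28.3% of the member sum in the Inputs and 0.376% and 0.369% of it in the RIP libraries.

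The 10 SNORA members with the highest mean level held 77.8% and 73.8% of the member sum in the Inputs, and about 40% and 42.9% in the RIP libraries. SCARNA members held 5.56% and 7.23% of it in the Inputs and 37.1% and 38.8% in RIP. The member sum itself was smaller in RIP, so a larger share of it need not be a higher level. SNORA3B, held in the ribosomal protein gene RPL27A (GRCh38, chr11:8685439-8685569), was at 3.61 FPKM in RIP and 3809 in Input for the label SW480, and at 7.58 and 1881 for DLD-1. Both RIP values lay far below both Inputs, by 1056-fold and 248.3-fold, from 14 RIP reads against 7294 Input reads and 25 against 3327. The log2 ratio of RIP FPKM + 1 to Input FPKM + 1, used for every member below, was -9.69 (95% counting interval of the read ratio -10.92 to -9.30) and -7.78 (-8.59 to -7.39). Inputs of the second table were lower, at 1169 and 721 FPKM, and still far above RIP.

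SNORA73B, a U17 RNA needed for maturation of the small-subunit ribosomal RNA rather than for pseudouridylation, was the highest member in RIP. It stood at 281 FPKM in RIP and 1451 in Input for the libraries labelled SW480, and at 540 and 1365 for those labelled DLD-1. It was lower in both RIP libraries by 5.16-fold and 2.53-fold, a small difference beside that of SNORA3B, and its gene copy SNORA73A was listed at 0 in all 4 libraries. SNORA74A and SNORA74B, copies of the U19 RNA, were at 6.65 and 11.4 FPKM in the RIP library labelled SW480 against 246 and 157 in its Input. In the libraries labelled DLD-1 they were at 23.5 and 16.4 in RIP against 229 and 124 in Input, so the groups did not overlap for either copy.

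SNORA23, held in the nuclear import gene IPO7, was at 31.7 FPKM in RIP and 774 in Input for the label SW480, and at 134 and 521 for DLD-1. SNORA26, held in the non-coding gene DANCR, was at 3.04 and 322, and at 5.86 and 248. SNORA65, held in the ribosomal protein gene RPL12, was at 4.15 and 243, and at 1.53 and 222. Each of the 3 was lower in both RIP libraries than in both Inputs, and SNORA65 was the only one of them that was lower in the RIP library labelled DLD-1 than in that labelled SW480. SNORA79B and SNORA12 also lay below both Inputs in both RIP libraries, with log2 ratios of -3.51 and -2.01 and of -2.86 and -1.85. SNORA53 differed from the other 9 in sign, at 19.5 FPKM in RIP and 61.0 in Input for the label SW480 but 91.8 and 73.8 for DLD-1, where RIP lay above Input. Against the scaled second-table Inputs its ratios were -2.34 and -0.39, below Input in both lines.

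**Figure D1:**
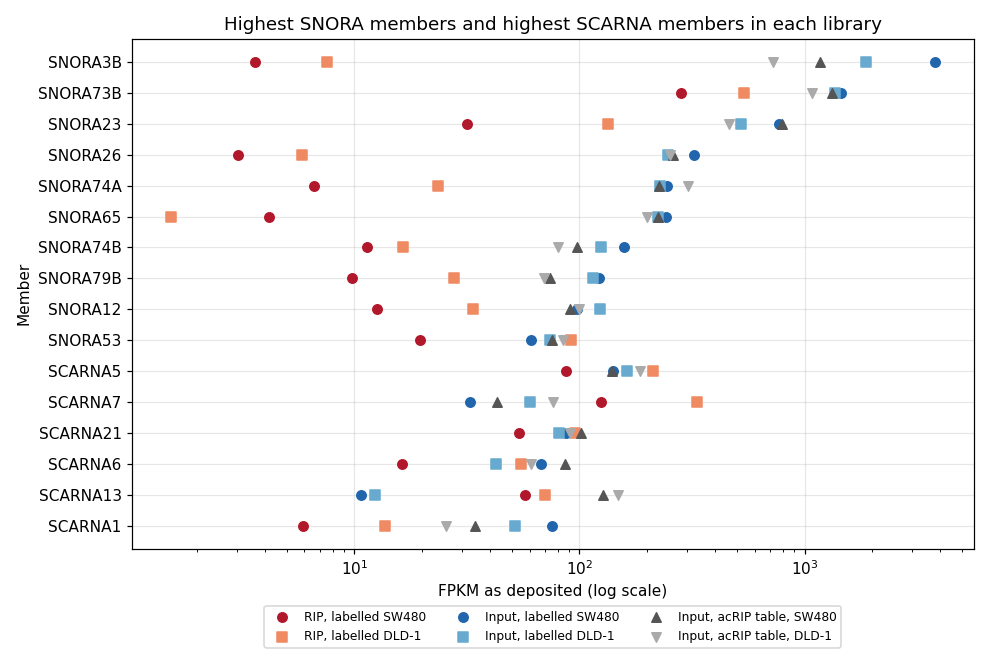
FPKM on a log axis of the 10 highest SNORA members and the 6 highest SCARNA members, with 1 point per library: RIP (red and orange), Input of the RIP table (blue) and Input of the acRIP table (grey, not scaled). SNORA3B lies at 3.61 and 7.58 in RIP and at 1881 and 3809 in Input, while SCARNA7 lies higher in both RIP libraries than in every Input.

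Several SNORA members that followed in mean level, chosen after their values were seen, repeated the order of RIP and Input at lower values. SNORA71C and SNORA71A, at similar mean levels, lay close to Input for the label SW480, with log2 ratios of -0.24 and -0.16. SNORA49 was at 10.2 FPKM in RIP and 133 in Input for the label SW480, and at 19.9 and 78.4 for DLD-1. SNORA75 was at 1.97 and 147, and at 5.51 and 80.6. SNORA20 was at 0.256 and 107, and at 3.01 and 34.2. For these 3 box H/ACA RNAs both RIP values lay below both Inputs, and SNORA20 in the RIP library labelled SW480 was at the level of a single read. SNORA28, SNORA74D, SNORA14B and SNORA66 had log2 ratios between -3.93 and -2.69 for the label SW480 and between -2.59 and -1.33 for DLD-1. Their Inputs in the acRIP table were 102, 57.3, 24.9 and 103 FPKM for SW480, above the RIP value in each case.

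Members with opposite signs were found at middle levels too. SNORA47 was at 5.38 FPKM in RIP and 14.4 in Input for the label SW480, and at 16.4 and 1.07 for DLD-1, with log2 ratios of -1.27 (-2.29 to -0.57) and 3.07 (2.01 to 7.01). SNORA33, held in the ribosomal protein gene RPS12, was at 7.53 and 23.7, and at 30.2 and 21.7. Its log2 ratios were -1.53 (-2.38 to -0.95) and 0.46 (-0.07 to 1.06), and the interval for DLD-1 spans 0. For both genes the RIP library labelled DLD-1 held the higher RIP value. With the Input of the other label SNORA47 gave 1.62 and 0.18.

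Detection followed no single pattern. Of the 132 members, 57 were above 0 in all 4 libraries, 25 in Input libraries alone and 24 in RIP libraries alone. The same pattern was not counted over all genes, so these counts are not read as particular to the members. Above 0 were 83 members in RIP and 97 in Input for the label SW480, and 98 and 83 for DLD-1. The RIP libraries were the deeper ones, and the part of depth in detection was not tested. SNORA9B was at 2.03 and 1.19 FPKM in RIP and at 0 in both Inputs, and SNORA74C-1 at 1.68 and 1.19 in RIP and 0 in both Inputs, from 12 and 16 reads.

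SCARNA members were mixed. SCARNA7, a box C/D RNA also known as U90 (chr3:160514907-160515236), was at 124 FPKM in RIP and 32.8 in Input for the label SW480, and at 331 and 60.4 for DLD-1. Both RIP values lay above both Inputs, with log2 ratios of 1.89 (1.68 to 2.17) and 2.44 (2.27 to 2.64), and above the Inputs of the second table, which were 43.2 and 76.5 FPKM. SCARNA13, a box H/ACA RNA also known as U93 (chr14:95533355-95533629), was at 57.3 and 10.7 FPKM, and at 70.3 and 12.4. Its log2 ratios were 2.32 and 2.41, but its Inputs in the second table stood at 128 and 148 FPKM, above both RIP values. Against those Inputs, scaled to the first table, the ratios were -1.59 and -1.58, so its direction turned with the Input used.

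SCARNA5 and SCARNA6, which join a box C/D and a box H/ACA part and lie near each other in ATG16L1, had opposite signs in the libraries of both labels. SCARNA5 was at 87.3 FPKM in RIP and 141 in Input for the label SW480, and at 212 and 162 for DLD-1. SCARNA6 was at 16.3 and 67.6, and at 55.0 and 42.8. For both genes RIP was below Input in the libraries labelled SW480 (-0.69 and -1.99) but higher under the label DLD-1 (0.38 and 0.35). SCARNA21, at 53.9, 87.1, 96.0 and 81.0 FPKM in the same order, had the same pattern with ratios of -0.68 and 0.24. The sign under the label DLD-1 turned with the Input used: against the scaled second-table Inputs the DLD-1 ratios were -0.33 for SCARNA5, -0.65 for SCARNA6 and -0.43 for SCARNA21, and all 3 genes lay below Input in both lines.

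The SCARNA members that were at least 2-fold lower in RIP of both labels were box H/ACA RNAs with the exception of SCARNA9, a box C/D RNA. SCARNA22, held in NSD2, was at 0 FPKM in RIP and 34.5 in Input for the label SW480, and at 0.953 and 4.15 for DLD-1. SCARNA1 was at 5.90 and 75.8, and at 13.6 and 51.8. SCARNA11, held in CHD4, was at 0 and 21.6, and at 0.584 and 27.2. These 3 lay below both Inputs in both RIP libraries, as did SCARNA20 and SCARNA14, with ratios of -2.32 and -3.30 and of -2.81 and -1.45. SCARNA9 is annotated as an antisense RNA in the deposited table, and its ratios of -1.28 and -1.40 came from 29 reads in all.

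Other SCARNA rows had few reads or differed by less than 2-fold. SCARNA8 gave ratios of -0.71 and -0.24, SCARNA18 0.57 and -0.01, SCARNA23 -2.43 and -0.81 and SCARNA10 -0.76 and -0.29. SCARNA3 was at 0 FPKM in RIP and 1.44 in Input for the label SW480, and at 1.94 and 0 for DLD-1. The row named SCARNA15 is annotated as a processed transcript, and its FPKM of 0.223 to 0.505 from at least 129 reads implies a gene much longer than the small RNA. The remaining SCARNA rows, SCARNA21B, a second SCARNA11 row and 2 further SCARNA21 rows, held 1 to 5 reads. SCARNA2, SCARNA4, SCARNA12, SCARNA16 and SCARNA17 were listed at 0 in all 4 libraries.

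Besides SCARNA7 and SCARNA13, the highest ratios in both lines belonged to low SNORA members. SNORA38, held in PRRC2A, was at 7.67 FPKM in RIP and 2.07 in Input for the label SW480, and at 27.4 and 0 for DLD-1, from 30, 4, 91 and 0 reads. SNORA11F, held in NUDT13, was at 7.12 and 0.534, and at 7.44 and 0, from 27, 1, 24 and 0 reads. The SNORA46 row without a RefSeq match was at 1.77 and 1.82 FPKM in RIP and at 0 in both Inputs. RIP lay above Input for the 3 rows in both lines, but SNORA11F was at 9.23 FPKM in the second Input labelled SW480, and its ratio there was -0.75. At the other end, SNORA58, in MRPL3, was at 0.985 and 30.5 FPKM, and at 0 and 17.8.

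Over all 132 members, 69 were at least 2-fold below Input in the libraries labelled SW480, where 12.1% of the 29953 genes above 0 were, and 55 in those labelled DLD-1, where 16.1% of all genes were. In both lines 44 members were at least 2-fold below Input, 33.3% of members against 3% of all genes. At least 2-fold above Input were 12 members for the label SW480, where 12.7% of all genes were, and 21 for DLD-1, where 10.5% of all genes were. In both lines 9 members were at least 2-fold above Input, 6.82% of members against 2.42% of all genes. Both RIP values lay below both Inputs for 55 members, 41.7% against 16.8% of all genes, and above both for 11 members, 8.33% against 19.6%. Since the rule used these FPKM values, the counts describe the members and carry no test.

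**Figure D2:**
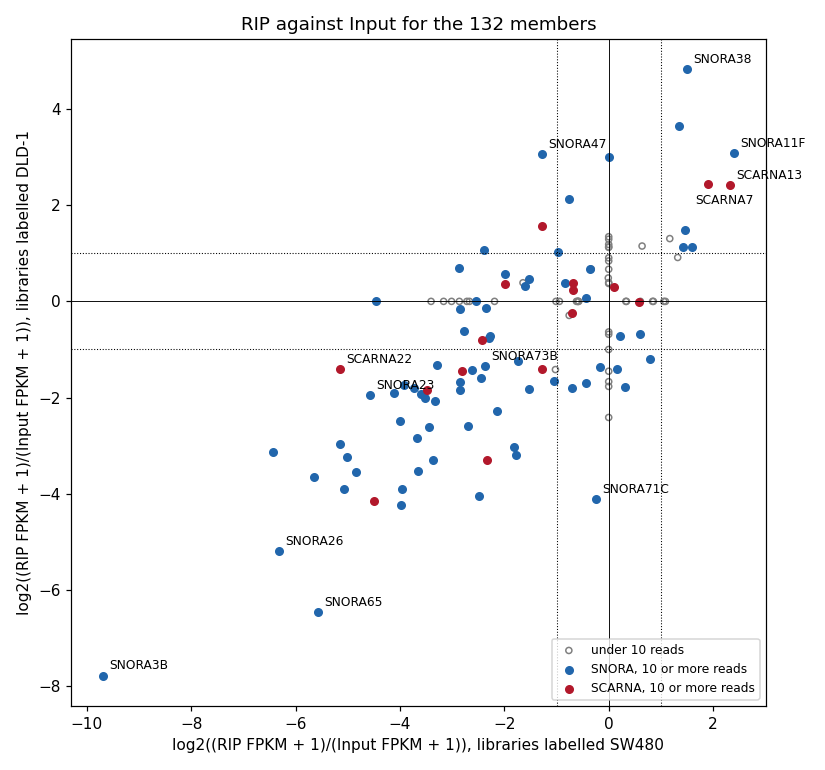
Log2 ratio of RIP to Input (FPKM + 1) of the 132 members in the libraries labelled SW480 (x axis) and DLD-1 (y axis), with dotted lines at 2-fold. Blue and red points are SNORA and SCARNA members with 10 or more reads over the 4 libraries and open circles those with fewer. The lower left corner beyond the dotted lines holds 44 members and the upper right 9.

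The median log2 ratio was -1.27 and -0.63 for SNORA, and -0.76 and -0.01 for SCARNA, in the libraries labelled SW480 and DLD-1. Over all genes the median was 0.02 and 0, and over SNORD genes, the box C/D small nucleolar RNAs, -1.33 and -0.53 (79 genes), of which 22 were at least 2-fold lower in both lines. Genes annotated as small nuclear RNA (398 rows) had medians of -0.32 and 0, and 11.3% of them were at least 2-fold lower in both lines. Low ratios were thus seen in box C/D genes as well as in box H/ACA genes, and the difference between the classes was not tested. The order of SNORA and SCARNA turned with the Input used. Over the scaled second-table Inputs of the same label, the medians were -0.92 and 0 for SNORA, and -1.95 and -0.43 for SCARNA. Among the other 1404 genes with a RefSeq length up to 400 bases, 11.3% were at least 2-fold lower in both lines. These short genes thus had a higher share than all genes and a lower share than the members, at 33.3%, or 46.6% of those matched to RefSeq. The sets were not matched on reads. The part of gene length in the member ratios was not tested beyond this. Over 76 members with a length and 10 or more reads, Spearman's rho of length and ratio was 0.095 and 0.034. The 62 members up to 150 bases had medians of -2.34 and -1.64, the 9 above that and up to 250 bases -3.48 and -1.85, and the 5 over 250 bases, all of them SCARNA, -0.69 and 0.38.

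**Figure D3:**
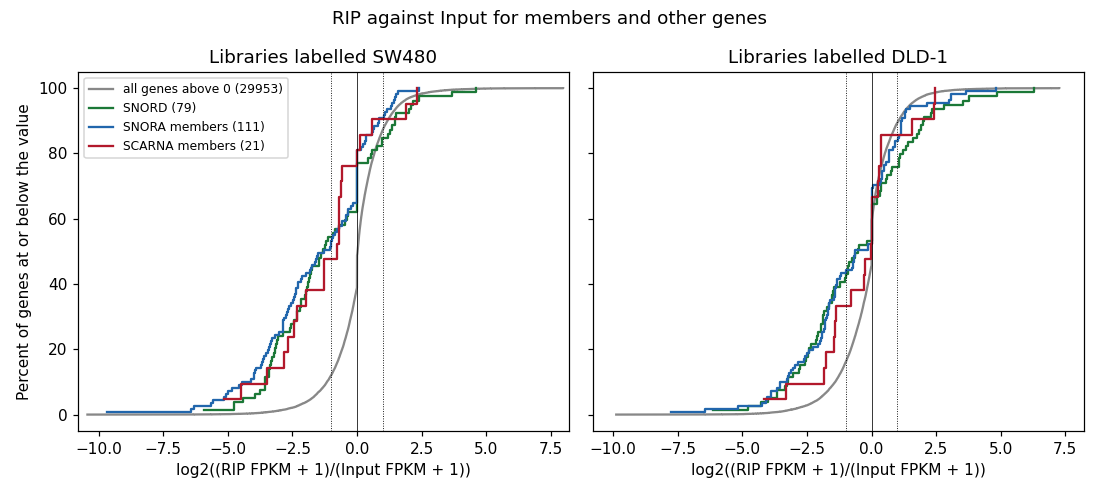
Cumulative percent of genes against the log2 ratio of RIP to Input (FPKM + 1), for libraries labelled SW480 (left) and DLD-1 (right), with dotted lines at 2-fold. The SNORA, SCARNA and SNORD curves run left of that of all 29953 genes over the negative range, and the SNORA and SNORD medians are -1.27 and -1.33 on the left.

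Many members are multicopy. The symbol of 63 members was shared with other rows, 88 members matched RefSeq by symbol (lengths 122 to 353 bases, median 135), and reads of near-identical copies cannot be assigned with certainty. Matched members had medians of -1.80 and -1.35 and the 44 unmatched rows 0 and 0. The SNORA71 copies show how relatives can differ. SNORA71D was at 4.79 FPKM in RIP and 71.5 in Input for the label SW480, and at 4.74 and 65.2 for DLD-1. SNORA71A was at 39.5 and 44.4, and at 24.6 and 64.7. SNORA71C was at 26.2 and 31.1, and at 8.59 and 164. Ratios therefore ran from -3.65 to -0.16 in the libraries labelled SW480 and from -4.11 to -1.36 in those labelled DLD-1 among these 3 copies.

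Members were next set beside the genes whose span holds them by position, the shortest where several did. Strand was not used, so a pair need not share a primary transcript. Of the members with 10 or more reads, 73 lay in 66 measured genes, 59 of the members in protein-coding ones. The median ratio of the holding genes was 0.21 and 0.23, and that of the members they hold -2.32 and -1.45. The member lay below its holding gene in 63 of 73 cases for the label SW480, in 58 for DLD-1 and in 55 for both. RPL12, which encodes a large-subunit ribosomal protein, was at 300 FPKM in RIP and 345 in Input for the label SW480, and at 577 and 251 for DLD-1, while its SNORA65 was low in both RIP libraries. RPL27A was at 58.9 and 77.5, and at 143 and 48.1, beside the low RIP values of SNORA3B. PRRC2A gave the opposite picture, with ratios of -0.68 and -0.22 while its SNORA38 lay above Input.

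**Figure D4:**
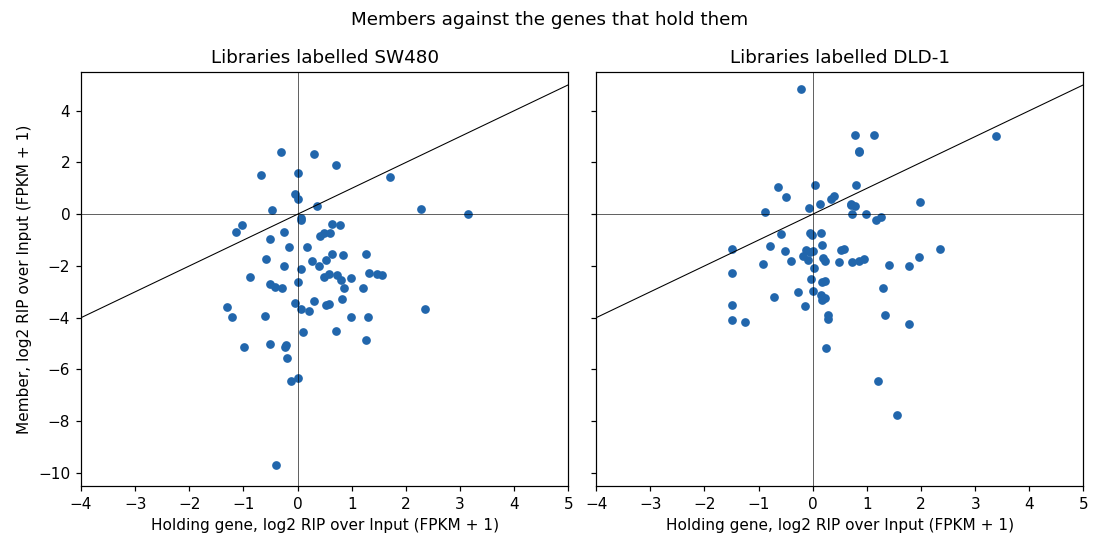
Log2 ratio of RIP to Input (FPKM + 1) of 73 members with 10 or more reads (y axis) against that of the gene holding each (x axis), by label. The diagonal marks equal ratios, and 63 points on the left and 58 on the right lie below it.

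The partner list, drawn up around the box H/ACA particle, held 14 protein-coding genes and TERC. Of these 15 genes, 2 were at least 2-fold above Input (13.3%, against 12.7% of all genes) and 1 below (6.67% against 12.1%) in the libraries labelled SW480. In those labelled DLD-1, 1 was above (6.67% against 10.5%) and 0 below (against 16.1%). With 15 genes these shares are not read as a result. GAR1, a core protein of the box H/ACA particle, was at 24.5 FPKM in RIP and 6.37 in Input, and at 12.8 and 5.81. NAF1, which assembles the particle, was at 12.6 and 4.64, and at 10.7 and 6.08. DKC1, the pseudouridine synthase, was at 52.2 and 32.4, and at 30.6 and 44.7. GAR1 was the one partner past 2-fold in both lines, and DKC1 had opposite signs. NAT10 itself was at 20.8 and 21.2, and at 14.3 and 23.0. TERC, the telomerase RNA with a box H/ACA domain, was at or below 1.25 FPKM in the 4 libraries.

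Inputs of the lines differed for some members. Of the 87 members with 10 or more reads, 21 differed at least 2-fold between the Inputs in the same direction in both tables, 14 higher in SW480 and 7 higher in DLD-1. Over all 132 members, with no minimum of reads, 18 were higher in SW480 (13.6%, against 5.56% of all genes) and 11 in DLD-1 (8.33% against 8.42%). SCARNA22 was at 34.5 and 4.15 FPKM in the Inputs of the RIP table and at 48.0 and 14.8 in those of the acRIP table, SW480 first. SNORA47 was at 14.4 and 1.07, and at 14.5 and 2.68. SNORA71C was higher in DLD-1, at 31.1 and 164, and at 44.7 and 145. The RIP difference between the labels did not share the sign of the Input difference for 14 of the 21. These were 13 of the 14 higher in SW480 and 1 of the 7 higher in DLD-1. Among the 13 were a SNORA70 row and a SNORA75 row at 0 FPKM in both RIP libraries, which had no RIP difference and so no opposite sign. RIP was higher in the library labelled DLD-1 for 67 of the 87 members, so the crossing of labels seen for KRT20 and a general difference between the RIP libraries cannot be told apart in this count.

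**Figure D5:**
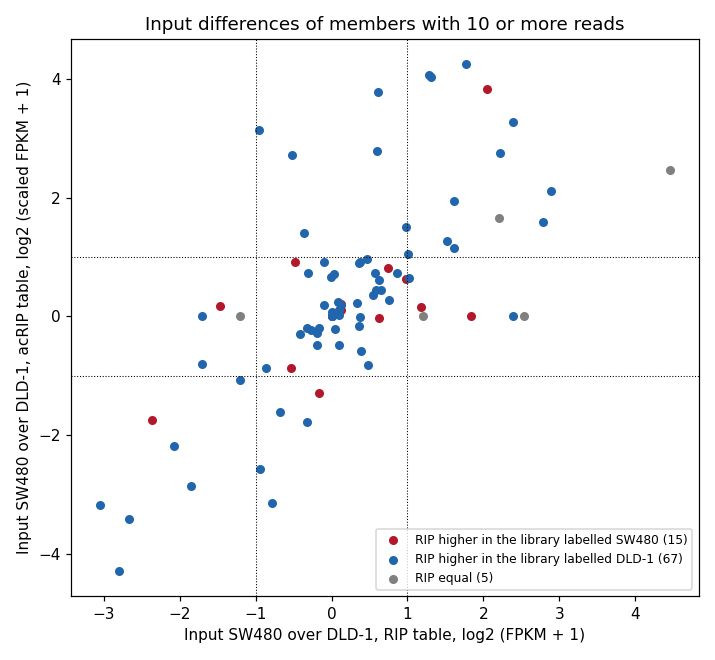
Log2 difference between the Inputs labelled SW480 and DLD-1 (FPKM + 1) for 87 members with 10 or more reads, in the RIP table (x axis) and in the acRIP table after scaling (y axis). Colours give the library with the higher RIP value, DLD-1 for 67 members, SW480 for 15 and neither for 5.

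How far the Input itself was reproducible was read from its values in both tables. For the 87 members the log2 difference between tables, after scaling, had an SD of 1.30 for SW480 and 1.28 for DLD-1, and 25 and 21 members differed at least 2-fold. The RIP ratio was larger than the difference between tables for 65 and 63 of them. Of the 59 and 50 members that were at least 2-fold below the first Input, 55 and 44 were so below both. The same share was not counted over all genes, so these counts describe the members alone. The low ratios of SNORA3B, SNORA26, SNORA65, SNORA74A and SNORA23 were among those below both.

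No ac4C peak in the lists called on each acRIP library or on both pooled was assigned by the authors to a member, out of 9536 peaks in SW480, 13964 in DLD-1 and 15622 pooled. By position alone, 2, 3 and 3 peaks overlapped a member by at least 1 base. They were assigned to TPT1 beside SNORA31, to RPL39 beside SNORA69 and, outside the SW480 list, to SLC25A3 beside SNORA53. The RPL39 peak (GRCh38, chrX:119787281-119787409) had a fold enrichment of 73.7 in the SW480 list and 86.9 in the DLD-1 list. SNORA31 and SNORA69 were at 0 FPKM in the Inputs of both tables, while SNORA53 was above 0 in each of them. The strand of the members was not given in the tables used here. Whether a peak lay on the exon of the holding gene or on the small RNA was not tested.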

How the data were processed

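RIP-seq and acRIP-seq libraries of SW480 and DLD-1 were compared with their Inputs. Per the labels, RNA was precipitated with commercial kits and libraries were made with a kit for long RNA, and the submitters' processing notes name cutadapt 2.5, HISAT2 2.1.0 and GRCh38. The counting tool, annotation release and strand setting are not given in the sources used here, and how libraries for long RNA and FPKM without a stated length correction represent RNAs of this size was not tested. The authors deposited FPKM per gene, and peak lists with a fold enrichment (a ratio) and a p-value per peak. The acRIP table names no unit, and its values were read as FPKM from their steps. Columns of the authors' own ratios of IP to Input, per line and averaged, were not used.

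Each RIP FPKM was compared with the Input as a log2 ratio with a pseudocount of 1, and a difference of at least 2-fold was called, without a test, since each group held 1 library. FPKM steps gave whole reads: for 86 of the 88 members matched to RefSeq (GRCh38.p14) reads came from the length, allowed to differ by up to 15 bases, and for the other 46 members they are the smallest whole numbers that fit. Intervals are exact (Clopper-Pearson) at 95%. Inputs of the acRIP table were multiplied by 1.37 and 1.43, the median ratio between tables. Named were every SCARNA member, the 10 SNORA with the highest mean FPKM, the 5 lowest and 5 highest in both lines with 10 or more reads, members with a peak, SNORA73A, SNORA73B, SNORA3B and the 15 partners. Other SNORA members that are named, the SNORA71 copies among them, and the genes holding members were chosen after their values were seen. Members and lists were chosen with earlier results of these data known. The read and interval steps were tested on simulated data. Python 3.11.15, numpy 2.4.6, pandas 2.3.3 and scipy 1.17.1 were used.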

Additional observations from a re-analysis of the deposited data

Results flagged for a closer look

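Named members whose RIP lay on opposite sides of Input in the libraries labelled SW480 and DLD-1 were looked at again. The difference was not tested, with 1 library per group. The log2 ratio of the libraries labelled SW480 minus that of DLD-1 was -1.91 for SNORA53, -2.34 for SCARNA6, -1.07 for SCARNA5, -0.92 for SCARNA21, -2.84 for SCARNA3 and 0.58 for SCARNA18. With the Input of the other label the ratios of SCARNA6 were -1.34 and -0.29, both negative. SNORA53, SCARNA5 and SCARNA21 kept opposite signs there, at -1.87 and 0.58, -0.89 and 0.58, and -0.58 and 0.14. Over the acRIP-table Input of the same label, 4 of these genes lay below Input in both lines: SNORA53 at -2.34 and -0.39, SCARNA6 at -2.78 and -0.65, SCARNA5 at -1.13 and -0.33, and SCARNA21 at -1.35 and -0.43. Their opposite signs thus depend on the Input used. SCARNA3 rests on 10 reads.

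Signals also appeared outside the members. SNORA78, listed at 0 in every library of both tables, was the authors' host of 1 ac4C peak in the SW480 list (GRCh38, chr16:1965184-1965310, plus strand), with a fold enrichment of 16.7 and p = 8.5e-05 as deposited. In the acRIP-table Inputs, SNORA9 stood at 0.694 FPKM and a SNORA8 row at 0.654 for SW480, and another SNORA8 row at 0.665 for DLD-1, while the 3 rows were at 0 in the RIP table.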

How the results depend on the processing

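With 1 library per group no replicate could be left out. No paired analysis was possible because no result comes from a test, and each ratio already pairs RIP and Input of a label. Members at least 2-fold below Input in both lines numbered 44 and stayed between 43 and 48 with a pseudocount of 0.1, both filters, centring, the other label's Input and the acRIP-table Inputs. With a pseudocount of 10 they were 28 (39 for SW480, 33 for DLD-1), members above Input were 2 for SW480, 5 for DLD-1 and 2 in both, and the SW480 medians were -0.32 for SNORA and -0.35 for SCARNA. A pseudocount of 0.1 gave 21 and 32 members above Input, and SW480 medians of -2.27 for SNORA and -2.53 for SCARNA. With a mean FPKM of at least 1, 83.5% and 68.1% of members lay below Input, against 67.4% and 52.3%, with 5, 11 and 5 (both lines) members above and SNORA medians of -2.51 and -1.51. Where both Inputs reached 1 FPKM, a filter that favours low ratios, these were 94.1% and 83.8%, 2, 3 and 2, and -2.81 and -1.88. Centring on protein-coding genes, which shifted values by 0.156 and -0.016, put 81.8% below Input for SW480, and the other label's acRIP-table Input 53.0%. Members with a symbol of their own, an alternative chosen after seeing the data, gave 79.7% and 65.2% below, 41 at least 2-fold below for SW480, 5, 9 and 5 above, and a SNORA median of -1.42 for DLD-1. Members with 10 or more reads, also chosen after seeing the data, gave 81.6% and 69.0%, with SNORA medians of -2.39 and -1.65. Overlap by position gave 2, 3 and 3 peaks in place of 0 for SW480, DLD-1 and pooled. Turned directions were looked for only in SCARNA members, the 10 highest SNORA and the 5 lowest and 5 highest members in both lines. Among values past 2-fold, directions turned for SCARNA13 over the acRIP-table Input (-1.59 and -1.58; other label -1.86 and -1.30), SNORA11F (-0.75 for SW480; other label -0.69 for DLD-1), SCARNA23 (1.03 for SW480, other label) and SCARNA3 (-2.50 for DLD-1, other label). Among values under 2-fold, 18 turned, 13 of them over an acRIP-table Input. With that of the same label, DLD-1 turned to -0.39 for SNORA53, -0.33 for SCARNA5, -0.65 for SCARNA6, -0.43 for SCARNA21 and 1.34 for SCARNA23, and SW480 to -0.44 for SCARNA15. Members outside the set looked at turned too. Over the acRIP-table Input of the same label, a SNORA72 row from at least 44 reads went from 1.34 and 3.64 to -4.44 and -2.07. A SNORA81 row went from -1.65 to 1.70 for DLD-1. Within the set, apart from the values past 2-fold that turned, 392 values stayed within and 126 left the counting interval. The causes were not tested. Overlap on the same strand was not run. Depth limits members with few reads, of which 45 had under 10.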
